A study of Mus musculus with 2 samples.

Results

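miR-335, miR-483 and miR-675 are miRNAs whose hairpins lie inside imprinted host genes, Mest, Igf2 and H19. Their reads were followed in J1 mESCs, a mouse embryonic stem cell line, with and without PD0325901 (PD), which inhibits MEK and so keeps ERK1/2 from being activated. Both groups were grown on gelatin without feeders, with 15% knockout serum replacement and 1000 U/mL of LIF, which keeps such cells self-renewing. For 24 h they received either 1 μM PD or an equal volume of its solvent DMSO (control). The RNA from 3 experiments per treatment was mixed before sequencing, so that there was 1 small RNA library for the control and 1 for PD, without replicates. The members are all tags, that is distinct read sequences with their read counts, that match 1 of the 3 hairpins perfectly over their whole length. There were 34 such tags with 1855 reads, of 8598 tags and 4292119 reads that matched any of the 1174 annotated miRNA hairpins. The control library held 917 of the member reads and the PD library 938, out of 18870345 and 20944808 clean reads.

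In imprinted genes only the copy inherited from 1 parent is normally active. Mest encodes a protein of the hydrolase family and Igf2 a growth factor, both expressed from the paternal copy, while H19 is a long noncoding RNA expressed from the maternal copy, and Igf2 and H19 share 1 imprinting control region. A miRNA hairpin is cut out of the longer transcript of its host by Drosha and DGCR8, and Dicer then releases a duplex of its 5p and 3p arms, of which usually 1 is loaded into Argonaute. Bases 2 to 8 of the loaded arm, the seed, pair with target mRNAs. miR-335 is known from work on cell migration and metastasis, miR-483 is raised together with Igf2 in Wilms tumours, and miR-675 is released from H19 mainly in the placenta and limits its growth.

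The hairpins are shown first because their arms decide where reads can fall. Lower case marks the hairpin, and capitals the mature arms of the RefSeq table (GRCm38.p6), which held all 3 hairpins and 6 mature sequences.
Mir335 hairpin: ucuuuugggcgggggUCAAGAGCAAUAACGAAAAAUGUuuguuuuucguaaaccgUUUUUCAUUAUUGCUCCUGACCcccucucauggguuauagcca
Mir483 hairpin: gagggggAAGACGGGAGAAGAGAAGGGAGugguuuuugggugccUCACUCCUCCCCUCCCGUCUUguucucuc
Mir675 hairpin: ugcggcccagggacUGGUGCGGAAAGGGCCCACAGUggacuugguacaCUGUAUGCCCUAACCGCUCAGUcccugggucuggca
Mir335 lies on the plus strand of chromosome 6 (GRCm38) from 30741299 to 30741396, in an intron of 7 of the 11 annotated Mest transcripts and in an exon of 0. Mir483 is transcribed from the minus strand and spans 142654924 to 142654996 of chromosome 7, in an intron of 7 of the 9 Igf2 transcripts. Mir675 lies on the same strand of chromosome 7 from 142577064 to 142577147, in an exon (exon 1 or 2) of 3 of the 7 H19 transcripts and in an intron of 1. The predicted free energies of folding were -44.3, -33.8 and -56 kcal/mol in this order, and 18, 16 and 16 base pairs joined the 2 arms. Base composition set the hairpins apart, with 42.9% G and C in Mir335, 58.9% in Mir483 and 63.1% in Mir675.

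The 6 mature arms are shown next with their seeds in capitals.
mmu-miR-335-5p: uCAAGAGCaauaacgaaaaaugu
mmu-miR-335-3p: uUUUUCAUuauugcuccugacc
mmu-miR-483-5p: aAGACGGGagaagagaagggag
mmu-miR-483-3p: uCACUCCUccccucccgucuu
mmu-miR-675-5p: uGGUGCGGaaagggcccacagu
mmu-miR-675-3p: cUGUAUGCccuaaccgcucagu
The 6 seeds all differ, and 0 other mature miRNAs of the RefSeq table carry any of them, so these arms form no seed family with each other or with another miRNA listed there. In the libraries the most frequent tag of miR-335-5p, of miR-335-3p and of miR-483-5p was identical to the RefSeq sequence. No tag matched the reverse strand of any of the 3 hairpins.

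**Figure D1:**
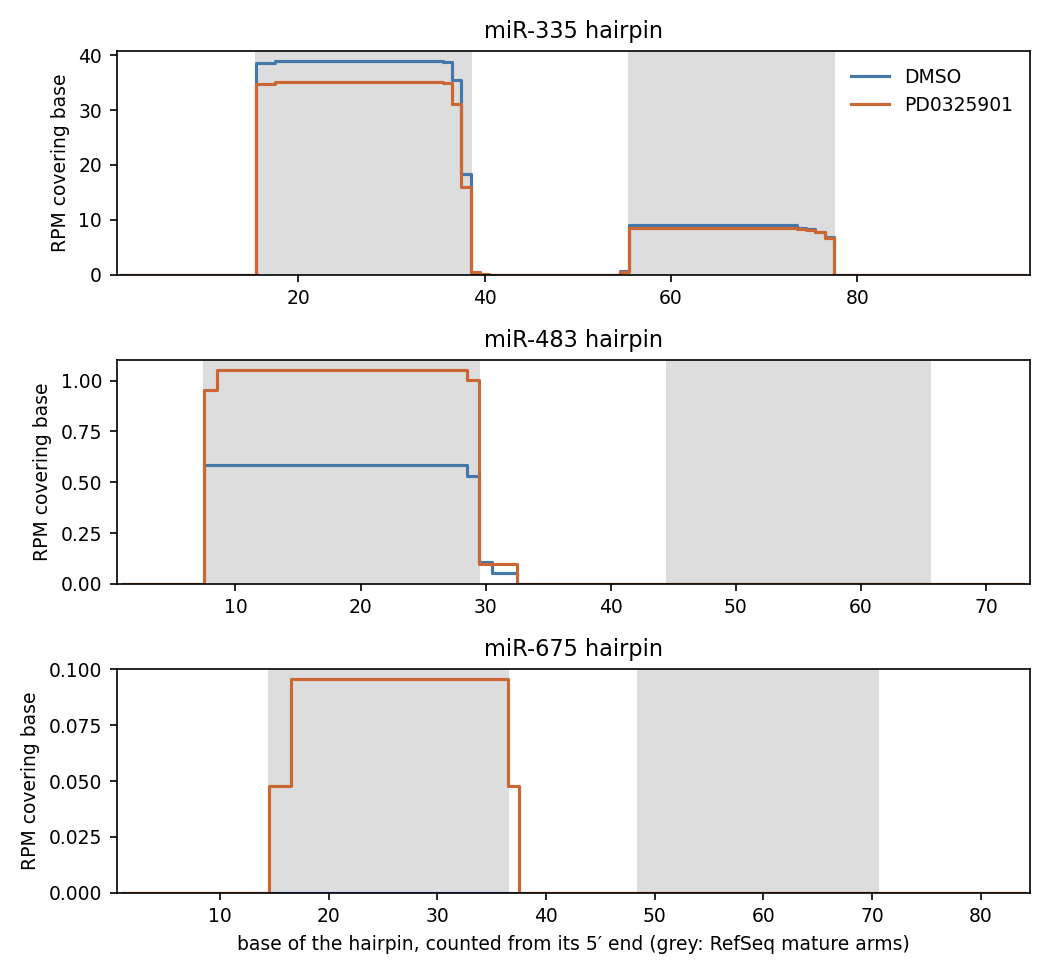
Reads over each base of the 3 hairpins, in RPM (reads scaled to a library of 1000000 clean reads), against the base counted from the 5′ end, for the control (DMSO) and PD libraries, with the RefSeq arms in grey. Both arms of miR-335 are covered in both libraries, miR-483 on its 5p arm alone, and miR-675 by 2 reads of the PD library, while no tag lies in a loop.

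The 3 hairpins differed widely in abundance. Mir335 gave 1820 of the 1855 reads (98.1%), Mir483 gave 33 and Mir675 gave 2. In RPM, the reads per 1000000 clean reads, Mir335 stood at 48.0 in the control and 43.6 in the PD library, Mir483 at 0.583 and 1.05, and Mir675 at 0 and 0.0955. Since 3 reads, taken here as the smallest readable count, are 0.159 RPM (control) and 0.143 RPM (PD), Mir675 was not above that limit in either library. All tags of Mir335 and Mir483 matched their own hairpin and no other transcript outside their locus.

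miR-335-5p was counted 733 times in the control (38.8 RPM, exact Poisson 95% interval 36.1 to 41.8) and 736 times in the PD library (35.1 RPM, 32.6 to 37.8). miR-335-3p had 173 reads (9.17 RPM, 7.85 to 10.6) and 178 reads (8.50 RPM, 7.30 to 9.84). miR-483-5p had 11 reads (0.583 RPM, 0.291 to 1.04) and 22 reads (1.05 RPM, 0.658 to 1.59). In both libraries the order was therefore miR-335-5p, miR-335-3p and miR-483-5p, with intervals that did not overlap between neighbours. miR-483-3p and miR-675-3p had 0 reads in both libraries, for which the exact Poisson 95% interval reaches up to 0.195 RPM (control) and 0.176 RPM (PD). For miR-675-5p the counts were 0 and 2, both under the limit of 3 reads, and no fold change was computed. These intervals express counting error alone, and levels of different miRNAs also carry the ligation efficiency of each sequence, which was not measured.

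**Figure D2:**
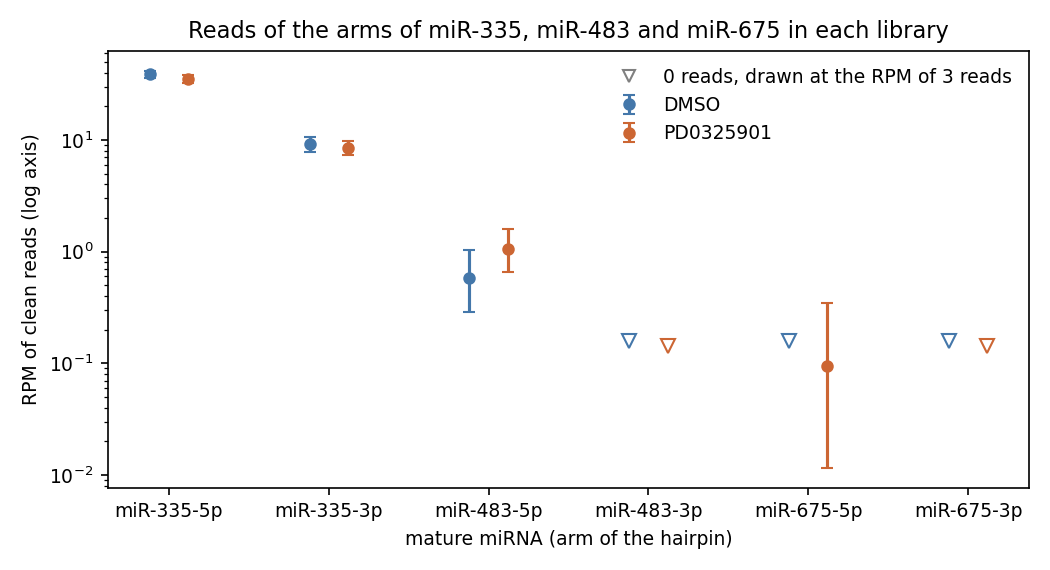
RPM of the 6 arms on a log axis in the control (DMSO) and PD libraries, 1 library each. Points are RPM with exact Poisson 95% intervals of the read count, and open triangles are arms with 0 reads, drawn at the RPM of 3 reads; the intervals of the 2 libraries overlap for every arm that has reads in both.

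Against the other miRNAs, miR-335-5p was above the median abundance and miR-335-3p close to it. A mature miRNA that reached 1 RPM in one or both libraries was taken as detected, which held for 509 miRNAs, with a median of 10.3 RPM in the control. miR-335-5p ranked 156 of these 509 in the control and 149 in the PD library, and miR-335-3p ranked 267 and 265. Of the 6 member arms, 3 passed this limit. miR-483-5p passed it in the PD library alone, so that the limit selected it for its higher level there. It was near the end of the list, at rank 504 and 482. For comparison, the 8 hairpins used as markers of mouse embryonic stem cells, from the miR-290 and miR-302 clusters, summed to 33071 and 28376 RPM, and all 8 had reads. Most of this sum came from Mir290a and Mir293, which were lower with PD. Mir302a (10.4 and 17.7 RPM), Mir302d (2.91 and 6.78) and Mir292 (1956 and 1984) were higher with PD, and the other members of this list were lower. The 5 fibroblast hairpins, of which 2 copies of miR-199a share their reads, summed to 209 and 179 RPM. Only these copies were lower with PD (Mir199a-1 at 92.3 and 61.7). Mir143 (109.2 and 109.6), Mir145a (7.21 and 7.54) and Mir214 (0 and 0.0477) were not. The 3 neural hairpins summed to 292 and 504 (Mir124a-1 alone was higher with PD, at 257 and 476, and Mir9-1 and Mir219a-1 were lower). The 3 muscle ones summed to 161 and 167 (with Mir206 lower, at 3.13 and 1.19), and the 4 blood ones to 17.1 and 16.4, with Mir223 at 0 reads. The liver marker Mir122 had 2.91 and 2.01 RPM and the endothelial marker Mir126a 3.66 and 2.72. The part of such cells in the member reads was not tested.

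The comparison of the libraries asks whether inhibition of MEK was accompanied by another level of these miRNAs. For each miRNA, the split of its reads between the libraries was set against the split of all clean reads (2-sided exact binomial test, Benjamini-Hochberg adjustment over the 509 detected miRNAs). Fold changes are RPM with PD divided by RPM in the control. For miR-335-5p it was 0.905 (Clopper-Pearson 95% interval 0.816 to 1.003, exact binomial test, adjusted p = 0.111), and for miR-335-3p it was 0.927 (0.748 to 1.15, exact binomial test, adjusted p = 0.622). For neither arm was a difference beyond the sampling of reads detected, and both intervals lie within 1.5-fold either way. For miR-483-5p the fold change was 1.80 (0.837 to 4.12, adjusted p = 0.208 from the exact test). Its point estimate passed 1.5-fold, but its interval includes both no change and a rise of more than 2-fold, so that a difference was not detectable at this depth. The test compares these 2 libraries and not the conditions, because variation between cultures cannot be seen with 1 library each. In RNA from whole cultures, fewer cells with a miRNA and less of it per cell cannot be told apart.

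Of the 3 detected arms, 0 passed both 1.5-fold and an adjusted p under 0.05, against 74 of all 509 detected miRNAs (14.5%), 54 lower (10.6%) and 20 higher (3.93%) in the PD library. By adjusted p alone, 0 of the 3 arms were called, against 44.0% of all detected miRNAs, 35.2% lower and 8.84% higher. By fold alone, 1 of the 3, miR-483-5p, was 1.5-fold or more higher, as were 6.29% of all detected miRNAs, and 0 were that much lower, where 13.2% of all were (19.4% in either direction). Of the 3 arms, 2 lay below the control, as 67.4% of all did, and 1 above it, as 32.6% did. The median log2 fold change of the 509 miRNAs was -0.17, and the quartiles were -0.40 and 0.06. The log2 fold changes of miR-335-5p (-0.14) and miR-335-3p (-0.11) thus lay 0.02 and 0.06 above that median, with 52.5% and 55.8% of the detected miRNAs lower. That of miR-483-5p (0.85) lay 1.02 above it, with 96.9% lower, but it was detected through the PD library alone, so that its rank and its place as the 1 higher arm depend on the limit of 1 RPM and are given as a description. Counted over the whole hairpin, Mir335 had 906 and 914 reads, a fold change of 0.909 (0.828 to 0.997, exact binomial p = 0.0435, not adjusted). This direction depended on the denominator. Per read that matched a miRNA hairpin the fold change of Mir335 was 1.04 (0.9496 to 1.14, p = 0.386 from the exact test), and per clean read of 20 to 24 nt, the size of most miRNAs, it was 1.10 (1.003 to 1.21, p = 0.0412 from the exact test). The same denominators gave 1.04 and 1.10 for miR-335-5p and moved the median log2 fold change of all detected miRNAs to 0.03 and 0.11. The control library had 63.0% of its reads in that size range and the PD library 52.0%, and the part of this in the fold changes was not tested.

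**Figure D3:**
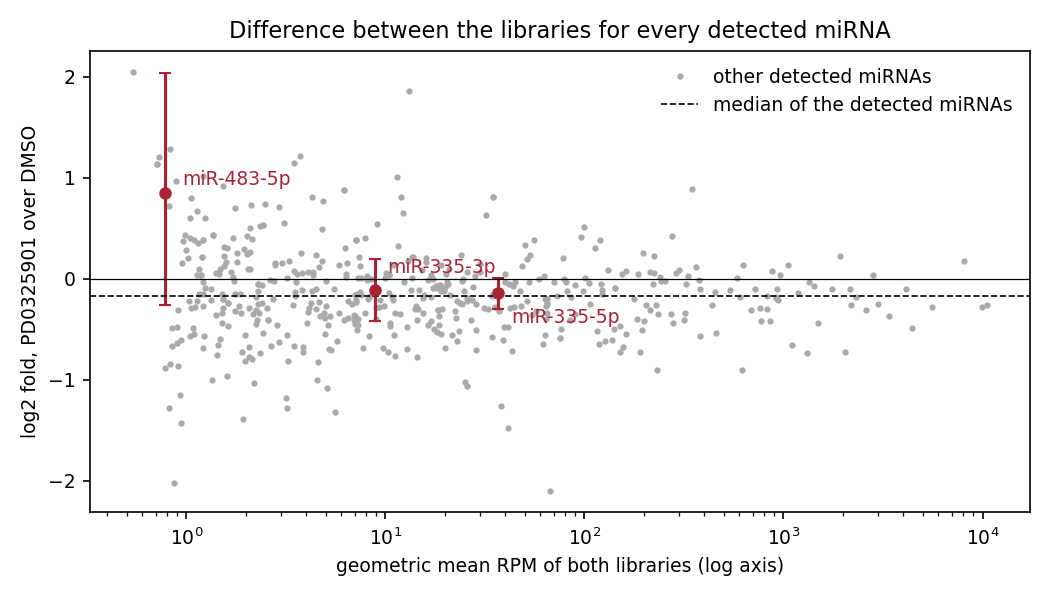
Log2 fold change of the PD over the control library against the geometric mean RPM of both (log axis) for the detected miRNAs with reads in both libraries, with the member arms in red and their Clopper-Pearson 95% intervals. Both arms of miR-335 (-0.14 and -0.11) lie just above the dashed median line of -0.17, and miR-483-5p lies further above it with an interval that crosses 0.

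The miRNAs with at least 100 reads in each library whose log2 fold change was nearest to that of miR-335-5p were miR-425-5p (-0.14), miR-101a-3p (-0.14) and miR-106b-3p (-0.15). Nearest to miR-335-3p were miR-431-5p, miR-142-5p and miR-106b-5p, each at -0.11. This likeness rests on 1 difference between 2 libraries. The values near the median of all miRNAs are shared by many, and miR-101a-3p, with 23494 and 23631 reads, had an adjusted p of 9.95e-26 at a fold change of 0.906, as large as that of miR-335-5p with its 733 and 736 reads. At the depth of miR-335-5p a difference of this size was therefore at the edge of what the reads could show.

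The 2 arms of miR-335 kept 1 ratio in both libraries. The 5p arm made up 80.9% of the arm reads in the control (95% Wilson interval 78.2 to 83.3) and 80.5% in the PD library (77.8 to 83.0), or 4.24 and 4.13 reads of 5p for each read of 3p. The shares did not differ beyond the sampling of reads (2-sided Fisher's exact test, p = 0.859). Unlike the RPM, this ratio does not depend on the denominator. Over the 247 hairpins with at least 100 reads in each library, the 5p share moved between the libraries by a median of 0.674 percentage points. All 33 reads of miR-483 came from its 5p arm, 11 in the control (Wilson interval of the 5p share 74.1 to 100%) and 22 in the PD library (85.1 to 100%). The 2 reads of miR-675 came from its 5p arm as well.

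The length variants of miR-335-5p are shown because 2 of them carry nearly equal read counts and differ by 1 base at the 3′ end. Capitals mark bases 2 to 8, and T stands for U as in the tags.
miR-335-5p, 23 nt: tCAAGAGCaataacgaaaaatgt
miR-335-5p, 22 nt: tCAAGAGCaataacgaaaaatg
miR-335-5p, 21 nt: tCAAGAGCaataacgaaaaat
The form of 23 nt had 339 reads in the control and 321 in the PD library, that of 22 nt 321 and 314, and that of 21 nt 61 and 77. Together with a few tags of 19, 20, 24 and 25 nt these share the first base of the mature miRNA, and so the seed. That first base was found in 99.5% of the miR-335-5p reads of the control (98.6 to 99.8) and in 98.6% of those of the PD library (97.5 to 99.3), above the median of 96.5% and 97.0% over 472 detected miRNAs with at least 20 reads in each library. Of the reads, 46.2% and 43.6% were identical to the 23 nt form, where the median miRNA had 56.4% and 60.6% in its most frequent tag.

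miR-335-3p was more uniform at its 3′ end and less so at its 5′ end. Its main tag of 22 nt had 119 reads in the control and 134 in the PD library, or 68.8% and 75.3% of the arm. Of the tags shown next, the first is this main form, and the second starts 1 base earlier and therefore carries another seed.
miR-335-3p, first base: tTTTTCATtattgctcctgacc
miR-335-3p, 1 base earlier: gTTTTTCAttattgctcctgacc
The early start was seen in 14 of 173 reads in the control and in 10 of 178 in the PD library, and the tag of 23 nt printed here in 9 and 8. The reads with the first base of the main tag were 90.8% (85.5 to 94.2) and 94.4% (90.0 to 96.9) of the arm. Tags of 21 nt or more were 85.0% of the reads in the control (78.9 to 89.5) and 92.1% in the PD library (87.2 to 95.3). This was the smallest p of 6 comparisons of start, length and identity over both arms, and it did not pass the adjustment over those 6 (Fisher's exact test, p = 0.0433, adjusted p = 0.260). Among the shorter tags, one of 18 nt that ends 4 bases before the main form had 10 reads in the control and 4 in the PD library. The same length share over the 472 miRNAs had a median of 93.7% in the control and 96.0% in the PD library.

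**Figure D4:**
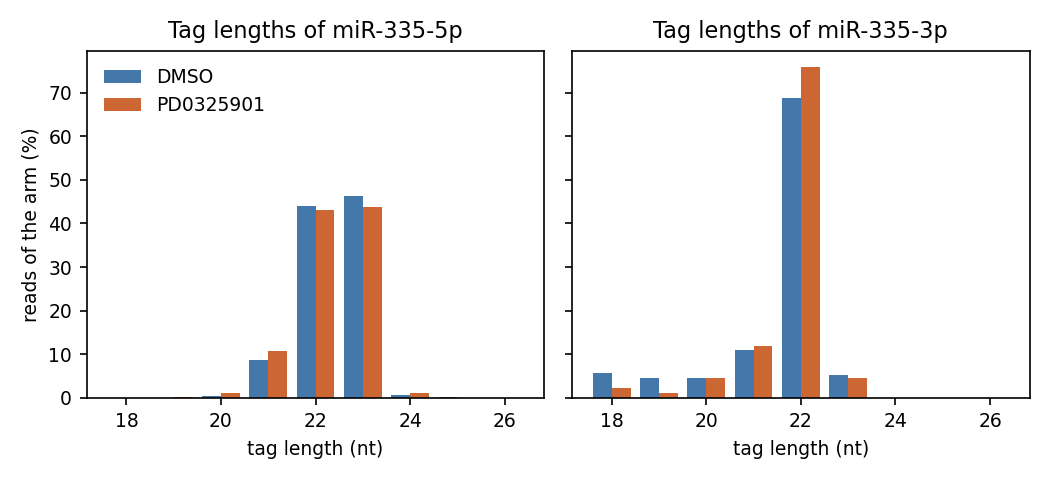
Share of the reads of miR-335-5p and miR-335-3p at each tag length from 18 to 26 nt in the control (DMSO) and PD libraries, 1 library each. The 5p arm is split between 22 and 23 nt, at 44.1% and 46.2% of the control reads, and the 3p arm peaks at 22 nt.

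Reads with added bases at the 3′ end, which perfect matching leaves out, were rare on the 5p arm of miR-335 and more frequent on the 3p arm. Counted were tags with a perfect stretch of at least 18 nt and then 1 to 3 A or 1 to 3 T. On miR-335-5p there were 2 such reads beside 733 perfect ones in the control (0.272%, 0.0747 to 0.987) and 5 beside 736 in the PD library (0.675%, 0.289 to 1.57), all with A. On miR-335-3p there were 23 of 196 (11.7%, 7.95 to 17.0) and 18 of 196 (9.18%, 5.89 to 14.0). The median detected miRNA had 6.03% and 6.94%. In both libraries the 5p arm stood below the lower quartile (2.27% and 3.01%). The 3p arm lay between the median and the upper quartile (14.5% and 14.9%), and its interval in the PD library includes the median. The most frequent tailed tag of the 3p arm replaces the last base of the main form by the added A, shown in capitals.
miR-335-3p, A tail: tttttcattattgctcctgacA
It had 15 reads in the control and 10 in the PD library. The shares of tailed reads did not differ between the libraries beyond the sampling of reads (Fisher's exact test, p = 0.452 for the 5p and 0.510 for the 3p arm). For miR-483-5p there were 1 of 12 and 2 of 24.

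Leaving aside the tags with added A or T counted above, some of which also differ from the hairpin by 1 base, a single changed base was found in 10 tags near Mir335 with 6 reads in each library, at most 3 reads for 1 tag over both. Beyond the tailed tags of miR-483-5p, 0 tags were found at 1 substitution from Mir483 or Mir675.

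The rare members are shown in full. The 22 nt form of miR-483-5p accounted for 8 of 11 reads without PD and for 19 of 22 with PD, and the remaining 4 tags had 1 or 2 reads each.
miR-483-5p, 22 nt: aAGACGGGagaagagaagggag
miR-675-5p, 22 nt: tGGTGCGGaaagggcccacagt
miR-675-5p, 2 bases later: gTGCGGAAagggcccacagtg
Each of the 2 miR-675 tags was read once, in the PD library. The first is the RefSeq mature miRNA, and the second starts 2 bases later and ends 1 base later. Because Mir675 lies in an exon, both tags also match the spliced H19 RNA, so that a product of Dicer and a short piece of H19 cannot be told apart from 2 reads.

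The hosts were searched for short sense fragments outside the hairpins, which small RNA libraries hold in traces and which do not measure the level of the host RNA. Mest gave 23 tags with 10 reads in the control and 16 in the PD library, at most 2 reads for a tag. The fold change was 1.44 (0.615 to 3.55, exact binomial p = 0.434), which was not detectable at this depth. H19 gave 2 and 3 reads, and Igf2 0 and 4. Of the 4 Igf2 reads, 2 had sequences that many other genes share, and the other 2 also matched the overlapping gene Gm49394. With 0 of these reads Igf2's alone, no fold change is given (exact binomial p = 0.127 for 0 against 4 reads). Mir335 hairpin reads outnumbered the fragments of all Mest exons by 906 to 10 in the control and 914 to 16 in the PD library. In the PD library Mir675 had 2 reads and the rest of H19 had 3. Neither count is above the limit of 3 reads, so they are not ordered. Introns outside the hairpin were not searched, since the reference held spliced transcripts only.

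miRNAs of other imprinted loci give the setting of these values. On the maternally expressed strand of the Dlk1-Dio3 domain, from Meg3 to Mirg on chromosome 12, 79 miRNAs were detected. Of these, 19 were 1.5-fold or more lower in the PD library with an adjusted p under 0.05 and 0 higher, where 10.6% of all detected miRNAs were called lower. The median log2 fold change was -0.41, with 73 of 79 below the control, against -0.17 over all detected miRNAs. With the other denominators this median lay between -0.25 and -0.14, with 51 to 65 of 79 below the control. The median of all detected miRNAs moved by the same amount, to between -0.01 and 0.11. By fold alone, the miRNAs 1.5-fold or more lower fell from 19 to between 5 and 7 of 79, with 0 to 2 higher. Over all 509 detected miRNAs, those lower by fold alone fell from 67 to between 22 and 31. Those higher rose from 32 to between 43 and 63. miR-323-3p, which had most reads there, went from 1378 to 876 RPM (fold change 0.635). miR-540-3p was the lowest of those with at least 10 RPM, at a fold change of 0.493 (672 and 368 reads, exact binomial test, adjusted p = 5.72e-28), and miR-341-3p the highest, at 1.34.

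In the introns of Sfmbt2, a paternally expressed gene of extraembryonic tissue with many copies of related hairpins, 45 miRNAs were detected, of which 1 was called lower and 6 higher (3.93% of all detected miRNAs were). The median log2 fold change was -0.09 per clean read and turned positive with the other denominators, from 0.07 to 0.19. That of all detected miRNAs moved with it, from -0.17 to between -0.01 and 0.11. For 29 of the 45, fewer than 50% of the control reads belonged to 1 miRNA alone, so that their values are not independent. miR-669c-5p had most reads there (fold change 1.17), and among those with at least 10 RPM miR-466f-3p was lowest at 0.718 and miR-467a-5p, whose reads were 0% its own and shared with miR-467b-5p at the same value, highest at 1.75. miR-296 and miR-298, of the Gnas domain, had 3 detected arms with fold changes of 0.819 for miR-298-5p, 0.232 for miR-296-3p and 1.15 for miR-296-5p. Per clean read both arms of miR-335 thus stood nearer to the median of all miRNAs than the median Dlk1-Dio3 miRNA did, a difference that was not tested.

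**Figure D5:**
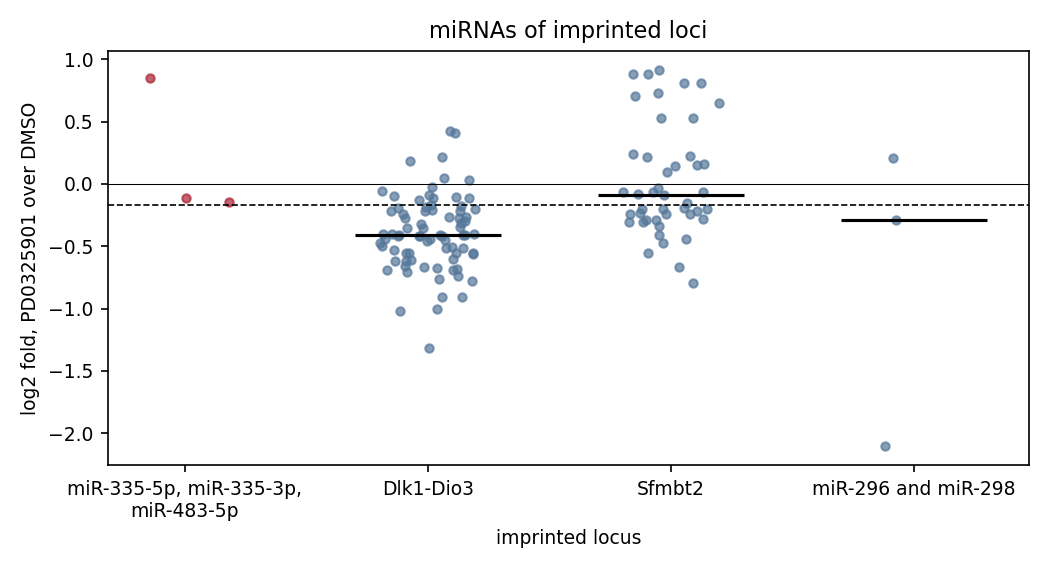
Log2 fold change of the PD over the control library for the detected miRNAs of imprinted loci, 1 point per mature miRNA, with black bars at the median of a locus and the dashed line at the median of all detected miRNAs (-0.17). The Dlk1-Dio3 miRNAs are centred at -0.41 (-0.25 to -0.14 with other denominators), those of Sfmbt2 at -0.09 (0.07 to 0.19 with other denominators), while the arms of miR-335 lie at -0.14 and -0.11 (above 0 with other denominators) and miR-483-5p at 0.85. Other denominators move the dashed line as well, to between -0.01 and 0.11, by the same amount as every point.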

How the data were processed

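Small RNA of J1 mESCs was sequenced by Illumina, with 1 library per treatment from RNA pooled over 3 experiments. The authors size-selected small RNA on a gel and deposited, for each distinct tag, its raw count among what they call clean reads. Clean reads had been filtered for quality and trimmed by the authors, with a minimum length of 18 nt. The labels name mm9 as build with no stated role, and tags were therefore matched to GENCODE M21 (GRCm38) here. The last line of each file, a total, was left out.

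Tags were matched perfectly to 1174 hairpins, arms were set by RNAfold (ViennaRNA 2.7.2), and the most frequent tag of an arm was its mature miRNA. A tag was counted where 16 nt or more of it lay on that sequence, and copies of a hairpin were merged into 1 miRNA. Tests were run in Python 3.11.15 with SciPy 1.17.1. The depth of 18870345 and 20944808 clean reads makes 3 reads 0.159 and 0.143 RPM. The quasi-likelihood test of edgeR needs replicates and was not run; its exact test at an assumed BCV (biological coefficient of variation) and its TMM factors (edgeR 4.0.16, R 4.3.3), and DESeq2 1.42.0 size factors, were alternatives, beside other denominators, filters and tag rules. The test procedure was tested on simulated data. The simulated counts followed the model that each test assumes, so they say nothing of the real variation between cultures.

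The members, the marker and imprinted lists and the tests were chosen with earlier results of these data known. Named were both arms of each member, the hosts, per other imprinted locus the miRNA with most reads and those with the lowest and highest fold change at 10 RPM or more, and the 3 miRNAs with at least 100 reads in each library nearest in log2 fold change to each member arm with at least 100 reads. Mature and hairpin sequences are from RefSeq (GRCm38.p6).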

Additional observations from a re-analysis of the deposited data

How the results depend on the processing

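No paired analysis was possible because each treatment had 1 library. The direction of miR-335 depended on the denominator. Per read matching a miRNA hairpin, per clean read of 20 to 24 nt, with TMM and with DESeq2 size factors, the fold change of miR-335-5p was 1.04, 1.10, 1.01 and 1.02, that of miR-335-3p 1.06, 1.12, 1.04 and 1.04, and that of the Mir335 hairpin 1.04, 1.10, 1.02 and 1.02. miR-335-3p was also at 1.01 with tags identical to the mature miRNA and at 1.01 with tags of 21 nt or more. With the latter the Mir335 hairpin was at 0.914 (exact binomial p = 0.0599). Over the alternatives the fold change ran from 0.853 to 1.10 for miR-335-5p and from 0.908 to 1.12 for miR-335-3p, and the adjusted p stayed at or above 0.0794 and 0.428, up to 1 with the exact test of edgeR at a BCV of 0.2. miR-483-5p, detected through the PD library alone, stayed between 1.80 and 2.18 (adjusted p 0.0797 to 1). Tags of 21 nt or more, tags of 1 locus, RefSeq mature miRNAs, no filter, 2-fold and the exact test of edgeR could not move its fold change. They kept its 11 and 22 reads and the clean reads as denominator. Its hairpin, 2.18 per read of 20 to 24 nt, then passed an unadjusted exact binomial p of 0.0359. That denominator raised the fold change of every miRNA by the same factor. With identical tags, with tags of the first base and at 10 RPM miR-483-5p was not among the detected miRNAs, and at 10 RPM miR-335-3p was not either.

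Of all detected miRNAs, 54 were called lower and 20 higher. In the order of the 4 denominators above, 18, 16, 20 and 20 were lower and 36, 44, 29 and 31 higher. With tags of 21 nt or more 34 were lower, with RefSeq mature miRNAs 10 higher, at 10 RPM 27 and 8, at 2-fold 15 and 7, and with the exact test of edgeR 29 and 11 at a BCV of 0.1 and 1 and 1 at 0.2. By fold alone the 67 lower and 32 higher became 27 and 51, 22 and 63, 31 and 43, and 31 and 46 with the denominators, 44 lower with tags of 21 nt or more, 18 higher with RefSeq, 293 and 266 with no filter, 27 and 8 at 10 RPM, and 16 and 10 at 2-fold. The arm share of miR-335 and the Mest fragments kept their direction and their side of the threshold under the 2 alternatives run for each. For Mest, 1 of these, tags that match no other locus, held the same 10 and 16 reads and so could not differ. The 11 reads of miR-483-5p in the control and the 0 and 2 reads of miR-675 limit what the depth can show.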
